A study of Mus musculus with 8 samples.

Results

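Hepatic expression of 10 genes of cytotoxic T cells and natural killer (NK) cells was examined in aged obese mice with and without docosahexaenoic acid (DHA) in the diet. The genes were the chemokines Ccl4 and Ccl5, the granzymes Gzma, Gzmb and Gzmk, the granule protein gene Nkg7, the T cell receptor subunit gene Cd3e, the coreceptor genes Cd8a and Cd8b1, and the chemokine receptor gene Cxcr6. They were 10 of the 56884 genes in the count tables, were matched by Ensembl identifier, and were chosen by symbol with their levels in the same libraries already known. For that reason the difference between the diets is described for these genes and was not tested.

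Liver RNA came from 18-month-old C57BL/6J females, with 1 library per mouse. All of them had become obese on a high-fat diet (45% lipid energy), which they ate from the age of 2 months and for 4 months before being divided. The DIO group (3 libraries, replicates 1, 4 and 5) stayed on that diet, and in the DIO+DHA group (5 libraries, replicates 1, 2, 4, 5 and 6) a fish oil concentrate took the place of 15% of the dietary lipids by weight, with 683.4 mg DHA, 46.7 mg eicosapentaenoic acid and 838.9 mg n-3 fatty acids in total per g. No lean or chow-fed mice were among the libraries, so both groups stand for diet-induced obesity in old females of 1 strain. Per the methods of the study, the DIO diet held the same tocopherols as the DHA concentrate, mice were assigned at random, and 5 mice shared a cage, with the cages of the libraries not given. The labels do not divide the 8 libraries into batches, and which of them were collected or prepared together is not given.

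Cytotoxic T cells and NK cells kill infected or damaged cells by releasing granules that hold perforin, which opens the target's membrane, and granzymes, proteases that enter the target and start its death. CD8 T cells find their targets through a T cell receptor, whose signal runs through the CD3 chains, and through CD8, which binds MHC class I on the target, whereas NK cells read a balance of activating and inhibitory receptors. The liver is rich in both, and CCL4 and CCL5, which activated cytotoxic cells secrete, draw in further leukocytes, while CXCR6 holds lymphocytes in the sinusoids, where endothelial cells and macrophages display its ligand CXCL16.

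The promoters of the granule genes are shown because RUNX and T-box factors are known regulators of cytotoxic genes. They were taken from RefSeq, in GRCm39, run 5′ to 3′ on the strand of the gene and hold 250 bases before and 50 bases after the start site. Capitals mark TGTGGT, the core that RUNX factors bind, and GGTGTGA, the core of T-box factors, on either strand.
Gzma, chr13:113237466-113237765, minus strand: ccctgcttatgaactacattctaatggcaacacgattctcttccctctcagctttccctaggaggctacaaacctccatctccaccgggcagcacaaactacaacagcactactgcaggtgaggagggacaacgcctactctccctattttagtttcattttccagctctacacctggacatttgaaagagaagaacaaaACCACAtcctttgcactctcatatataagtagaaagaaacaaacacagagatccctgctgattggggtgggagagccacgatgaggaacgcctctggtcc
Gzmb, chr14:56499742-56500041, minus strand: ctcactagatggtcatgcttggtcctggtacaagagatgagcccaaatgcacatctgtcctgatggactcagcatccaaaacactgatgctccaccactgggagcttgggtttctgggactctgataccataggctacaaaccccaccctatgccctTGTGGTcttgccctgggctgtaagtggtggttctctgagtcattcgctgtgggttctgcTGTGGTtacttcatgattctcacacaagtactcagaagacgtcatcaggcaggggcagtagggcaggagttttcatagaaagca
Gzmk, chr13:113317450-113317749, minus strand: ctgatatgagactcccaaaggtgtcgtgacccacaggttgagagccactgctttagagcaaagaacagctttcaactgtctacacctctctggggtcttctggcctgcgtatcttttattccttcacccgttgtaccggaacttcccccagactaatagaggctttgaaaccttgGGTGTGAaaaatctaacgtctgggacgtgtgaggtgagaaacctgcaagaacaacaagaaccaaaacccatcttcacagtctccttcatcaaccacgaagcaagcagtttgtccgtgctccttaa
Nkg7, chr7:43086312-43086611, plus strand: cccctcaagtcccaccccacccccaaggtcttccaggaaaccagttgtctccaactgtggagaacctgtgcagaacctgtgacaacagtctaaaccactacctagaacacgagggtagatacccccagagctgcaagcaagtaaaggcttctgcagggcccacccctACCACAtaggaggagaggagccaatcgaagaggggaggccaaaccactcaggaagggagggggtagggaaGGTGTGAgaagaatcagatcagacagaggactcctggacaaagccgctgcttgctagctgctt

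The RUNX core stood 50 bases before the start of Gzma and 83 bases before that of Nkg7, and in Gzmb it occurred at both 93 and 34 bases. The T-box core stood 75 bases before the start of Gzmk and 13 bases before that of Nkg7. These distances run from the RefSeq start. That start lies inside the gene body of the deposited tables for Gzmk and Nkg7. For Gzmb the whole promoter shown lies before that gene body. Promoter entries were found for 7 of the 10 genes, and those of Ccl4, Ccl5 and Cd8b1 were not analysed here. The RUNX core was in 4 of the 7 (Gzma, Gzmb, Nkg7 and Cxcr6), against 16.8% of 32851 promoters of the same length, and the T-box core was in 2 of them, against 3.98%. Of 4 other motifs searched on both strands, TGANTCA of AP-1 was in Gzmb (7.81% of all promoters), GGG and TTCC with 3 free bases between them, a core of NF-kB, in Gzmk (5.56%), and GAAA and GAAA with 2 free bases between them, of interferon-responsive elements, in Gzma (3.44%), while the TATA box letters TATAAA were in none of the 7 (13.6%). All 6 motifs were chosen after these promoters had been seen, and the matches overlap with no other motif of the 6. A match describes the letters only and shows no binding.

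Levels are given as CPM, in which each count is divided by the TMM-scaled size of its library, and ± marks the SD over the libraries of a group (n = 3 for DIO and n = 5 for DIO+DHA). Because the cDNA was enriched in 3′ ends and not divided by gene length, levels are compared between libraries and not between genes. The libraries held 1723800 to 5690347 counts, and DIO replicate 1 was the shallowest, so that 3 counts, taken as the lowest level worth reading, stood for 1.69 CPM there and for 0.532 to 1.07 CPM elsewhere. Of the 12412 genes that passed the filter on low counts, 15.2% differed between the groups at an adjusted p under 0.05 in edgeR's quasi-likelihood test. The shares were 7.28% lower and 7.89% higher in the DIO+DHA group. The 25 tested genes of a skeletal muscle list were all higher in the DIO+DHA livers, at 1684 to 1833 CPM in sum against 69.7 to 74.3 CPM. Of a squamous epithelium list, 10 of 11 tested genes were higher too. Only 14 of these muscle genes and 4 of these epithelium genes passed the filter in both groups. The rest passed through the DIO+DHA group alone, so the filter partly set these counts. The CPM sums take in all listed genes and do not depend on the filter. For the epithelium list they were 217 to 234 CPM in the DIO and 339 to 371 CPM in the DIO+DHA libraries. The source of this muscle and epithelium RNA was not tested. It divides the libraries just as the diet does, so its part in the differences below cannot be told apart from that of the diet.

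Ccl5 carried most of the counts of the 10 genes. Ccl5 (chr11:83416604-83421344, minus strand) was at 105, 111 and 93.7 CPM in the DIO libraries, in order of replicate number, and at 34.5, 31.8, 35.3, 32.3 and 31.0 CPM in the DIO+DHA libraries. Every DIO library lay above every DIO+DHA library, with group means of 103 ± 8.95 CPM and 33 ± 1.83 CPM. The log2 fold change was -1.64 with a standard error of 0.09, which put the DIO+DHA mean at 32% of the DIO mean. In liver tissue, fewer cells of a type, less RNA per cell and a change in other cells that express the gene cannot be told apart. That holds here and for all genes below.

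Ccl4 (chr11:83553410-83555509, plus strand), which encodes MIP-1β, had 11, 33 and 19 counts in the DIO libraries and 1, 2, 3, 4 and 2 counts in the DIO+DHA libraries. As CPM these were 6.19, 5.95 and 3.37 against 0.198, 0.670, 1.07, 0.937 and 0.437. DIO replicate 5 was the lowest of its group and was still above all DIO+DHA libraries. The means were 5.17 ± 1.56 CPM and 0.663 ± 0.356 CPM, with a log2 fold change of -2.95 and a standard error of 0.43. Its counts of 12 over the whole DIO+DHA group leave the size of the fold loosely bound: summed over the libraries, the ratio of DIO to DIO+DHA was 7.97, with a 95% exact interval of 4.26 to 16.2 that covers counting error only.

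The 3 granzyme genes were each lower in all DIO+DHA libraries than in any DIO library. Gzma (chr13:113230359-113237515, minus strand), which encodes the tryptase of the granules, had 9, 21 and 21 counts in the DIO libraries and 7, 5, 2, 6 and 9 counts in the DIO+DHA libraries. The levels were 3.73 to 5.06 CPM against 0.714 to 1.97 CPM, without overlap, and DIO replicate 1 was the highest. The means of 4.19 ± 0.755 and 1.43 ± 0.464 CPM differed by -1.42 on the log2 scale, with a standard error of 0.36.

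Gzmb (chr14:56496295-56499717, minus strand), whose product cuts after aspartate and activates caspases, had 6, 15 and 13 counts against 2, 1, 3, 1 and 5. Its lowest DIO library was at 2.31 CPM and its highest DIO+DHA library at 1.09 CPM. The means were 2.80 ± 0.540 CPM and 0.626 ± 0.420 CPM, and the log2 fold change was -2.06 with a standard error of 0.50. When single libraries were left out, the log2 fold change ran from -2.44 without DIO+DHA replicate 6 to -1.85 without DIO+DHA replicate 5.

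Gzmk (chr13:113308142-113362442, minus strand) lies within 100 kb of Gzma and marks memory and aged CD8 T cells. The RefSeq start used for its promoter lies inside the longer gene body of the deposited tables. It had 4, 9 and 14 counts in the DIO libraries and 2, 2, 1, 0 and 2 counts in the DIO+DHA libraries, and the 0 of DIO+DHA replicate 5 allows up to 0.703 CPM. The groups did not overlap, at 1.62 to 2.48 CPM against 0 to 0.670 CPM. The log2 fold change was -2.45 with a standard error of 0.59, and it ran from -2.69 to -2.13 when single libraries were left out. Summed over the 3 granzyme genes, the DIO libraries held 10.7, 8.11 and 8.52 CPM and the DIO+DHA libraries 2.18, 2.68, 2.14, 1.64 and 3.49 CPM.

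Nkg7 (chr7:43086497-43087673, plus strand) encodes a granule membrane protein needed for degranulation in NK and CD8 T cells. It was at 19.1, 14.6 and 17.2 CPM in the DIO libraries and at 5.36, 4.69, 7.85, 4.45 and 4.80 CPM in the DIO+DHA libraries. DIO+DHA replicate 4 stood above the rest of its group and below all DIO libraries. The means were 17.0 ± 2.27 CPM and 5.43 ± 1.39 CPM, and the log2 fold change was -1.63 with a standard error of 0.20.

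The CD8 coreceptor is a dimer of the chains that Cd8a and Cd8b1 encode, and the β chain is the narrower marker of conventional CD8 T cells. Cd8a (chr6:71350411-71356157, plus strand) was at 3.94, 3.07 and 3.90 CPM in the DIO libraries and at 0.595, 0.335, 1.07, 0.468 and 1.53 CPM in the DIO+DHA libraries. The groups did not overlap, and the log2 fold change was -2.09 with a standard error of 0.43. Without DIO+DHA replicate 6, the highest of its group, it was -2.52, and without DIO+DHA replicate 5 it was -1.94.

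Cd8b1 (chr6:71299772-71314478, plus strand) had 7, 10 and 27 counts in the DIO libraries and 1, 6, 4, 3 and 3 counts in the DIO+DHA libraries. Here the groups overlapped, since DIO replicate 4 was at 1.80 CPM and DIO+DHA replicate 2 at 2.01 CPM. The means were 3.51 ± 1.54 CPM and 0.999 ± 0.717 CPM. The log2 fold change of -1.93, with a standard error of 0.46, ran from -2.32 without DIO replicate 4 to -1.42 without DIO replicate 5.

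Cd3e (chr9:44910038-44920925, minus strand), which encodes the ε chain of the CD3 complex on all T cells, was at the limit of detection. It had 2, 3 and 11 counts in the DIO libraries and 3, 0, 0, 0 and 2 counts in the DIO+DHA libraries, or 0.541 to 1.95 CPM against 0 to 0.595 CPM, and the groups overlapped. The zeros of DIO+DHA replicates 2, 4 and 5 allow up to 1.01, 1.07 and 0.703 CPM, which DIO replicate 4, at 0.541 CPM, did not exceed. The gene failed the filter in both groups, and a fit without the filter gave a log2 fold change of -2.17 with a standard error of 0.78. The deposited exons of Cd3e share 3.31% of their bases with Gm48719, while those of the other 9 genes share none with another gene.

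Cxcr6 (chr9:123635540-123640825, plus strand) was not lower in the DIO+DHA group. It had 1, 7 and 8 counts in the DIO libraries and 11, 1, 2, 4 and 9 counts in the DIO+DHA libraries. The highest levels, 2.18 and 1.97 CPM, were in DIO+DHA replicates 1 and 6, and the lowest, 0.335 CPM, in DIO+DHA replicate 2. With means of 1.08 ± 0.456 CPM and 1.23 ± 0.806 CPM, the groups overlapped. The log2 fold change was 0.14 with a standard error of 0.52, and leaving out DIO+DHA replicate 1 or 6 turned it to -0.17 or -0.066. Cxcr6 lies inside the body of Fyco1 on the opposite strand, with no shared exon, and counting used no strand. Fyco1 itself was at 21.5 ± 1.06 CPM and 26.5 ± 2.02 CPM, with an adjusted p of 0.164 in edgeR's quasi-likelihood test, and its part in the counts of Cxcr6 was not tested.

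**Figure D1:**
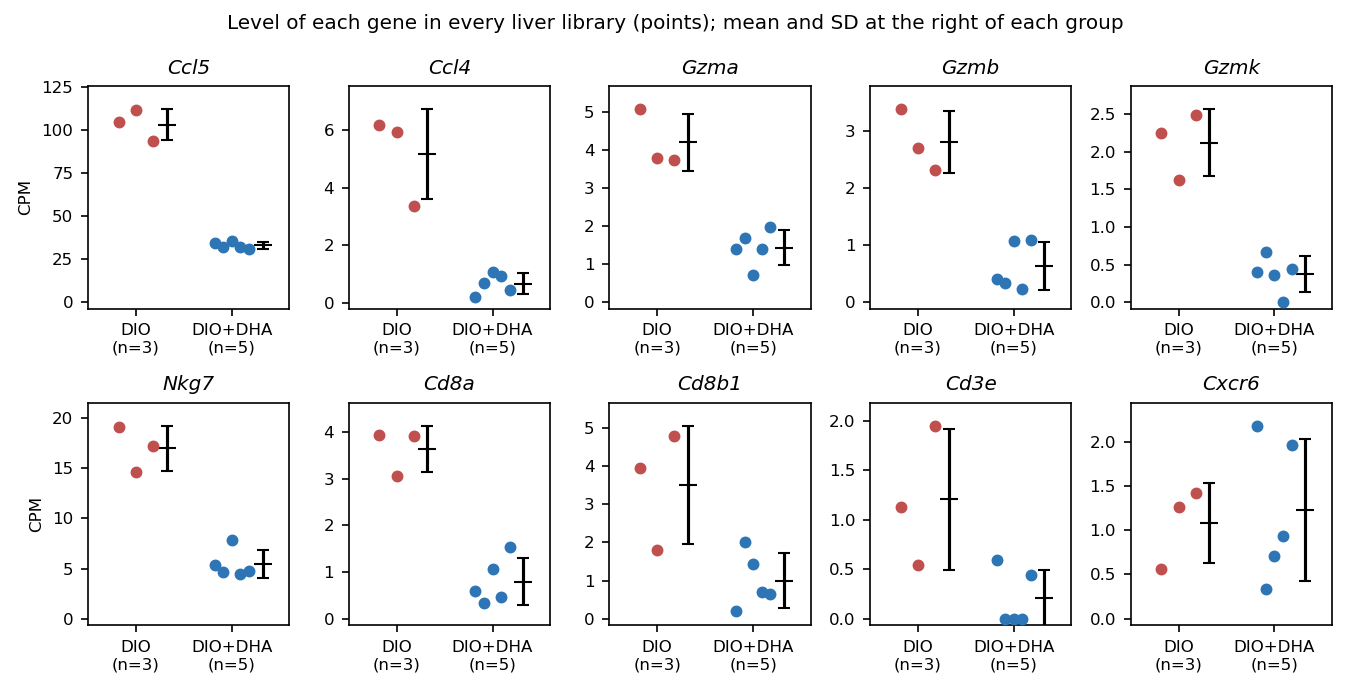
Level of each of the 10 genes in CPM (vertical axis, from 0, a separate scale for each gene) in the DIO libraries (3 points) and the DIO+DHA libraries (5 points), with the group mean and SD beside them. The groups do not overlap for Ccl5, Ccl4, Gzma, Gzmb, Gzmk, Nkg7 and Cd8a, and they overlap for Cd8b1, Cd3e and Cxcr6.

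In all, 7 of the 10 genes had every DIO library above every DIO+DHA library, where 8.88% of the tested genes did, and 0 had every DIO library below, where 9.54% did. The filter kept 9 of the 10 genes, and the test that spans all genes called 8 of these lower, beside 7.28% of all tested genes, with Cxcr6 not called. Nothing is read from these counts, because the same contrast chose the genes. In addition, only Ccl5, Gzma and Nkg7 reached 5 counts often enough in both groups. Ccl4, Gzmb, Gzmk, Cd8a, Cd8b1 and Cxcr6 passed through the DIO group alone. With a filter on the mean over all libraries instead, which ignores the groups, 8 of the 10 were kept and 7 of these were called lower.

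The summed level of the 10 genes was 135 to 150 CPM in the DIO libraries and 41.5 to 49.6 CPM in the DIO+DHA libraries. Ccl5 gave 69.5% to 75.9% of their counts in the DIO group and 70.0% to 78.0% in the DIO+DHA group, ranges that overlap, and Nkg7 gave 9.95% to 12.8% and 10.7% to 15.8%. Ccl4 gave 2.50% to 4.12% in the DIO group and 0.433% to 2.26% in the DIO+DHA group, with no overlap, and Cxcr6 gave 0.375% to 1.05% and 0.787% to 4.76%. Without Ccl5 the sum of the other 9 genes was 35.3 to 45.6 CPM against 9.13 to 14.3 CPM.

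The wider T cell genes were then set beside the 10. Of 40 further genes of the T cell receptor and its signalling, 22 were tested, 5 were called lower and 0 higher. Their log2 fold changes had a median of -0.50, against 0.0011 over all tested genes, and 17 of the 22 were negative. Of the 22, 4 passed the filter on low counts through the DIO group alone, so the filter partly set this median. With the filter on the mean over all libraries, 19 were tested and 5 were lower. Cd3g, the γ chain, was at 7.31, 7.75 and 4.97 CPM in the DIO libraries and at 2.68 to 3.98 CPM in the DIO+DHA libraries, with a log2 fold change of -0.87 and an adjusted p of 0.0153 in edgeR's quasi-likelihood test. Cd3d, the δ chain, was at 3.73 to 6.19 CPM and 2.14 to 4.69 CPM and was not called, with a log2 fold change of -0.52 and a standard error of 0.30. Cd2, a further T cell marker, had 5, 6 and 4 counts in the DIO libraries and 16, 4, 4, 6 and 7 counts in the DIO+DHA libraries. Its levels of 0.710 to 2.81 CPM and 1.34 to 3.17 CPM overlapped.

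The other genes called lower were Trbc2, a constant region of the T cell receptor β chain (5.12 ± 1.56 to 3.11 ± 0.736 CPM), Ms4a6b, a T cell membrane protein (5.09 ± 1.20 to 2.49 ± 0.661 CPM), and the small GTPases of lymphocytes Gimap4 (13.8 ± 1.71 to 9.03 ± 2.23 CPM) and Gimap7 (1.98 ± 1.22 to 0.690 ± 0.297 CPM). Gimap7 passed the filter on low counts through the DIO group alone. None of the 5 calls stood on all libraries. Without DIO replicate 4 all 5 were lost, with adjusted p from 0.062 for Gimap4 to 0.229 for Ms4a6b, and without DIO replicate 5 those of Trbc2 (0.310), Gimap7 (0.119) and Gimap4 (0.0594) were lost. Gimap4 was also lost without DIO replicate 1 (0.0686) or DIO+DHA replicate 6 (0.0597), and Trbc2 without DIO+DHA replicate 2, 4 or 5 (0.0557, 0.0960 and 0.0994).

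Zap70, the kinase that carries the signal of the receptor, was at 73.4 ± 12.9 and 64.1 ± 7.67 CPM (adjusted p = 0.118 in edgeR's quasi-likelihood test). It was called lower without DIO replicate 1, with a log2 fold change of -0.32 and an adjusted p of 0.0184. Gimap6 was at 15.9 ± 3.05 and 14.7 ± 1.67 CPM (adjusted p = 0.822). The constant regions of the T cell receptor chains, Trac, Trbc1 and Trbc2, summed to 6.75, 8.84 and 11 CPM in the DIO libraries and to 5.86 to 9.39 CPM in the DIO+DHA libraries, which overlap. Trbc1 alone was at 1.63 CPM in the DIO and 2.69 CPM in the DIO+DHA group on average, with a log2 fold change of 0.63 and a standard error of 0.40.

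Set against the CD3 chains, the CD8 counts varied widely. The summed counts of Cd8a and Cd8b1 were 14, 27 and 49 in the DIO libraries and 4, 7, 7, 5 and 10 in the DIO+DHA libraries, and those of Cd3d, Cd3e and Cd3g were 26, 74 and 60 and 38, 22, 16, 28 and 35. The ratio of CD8 to CD3 counts was 0.365 to 0.817 in the DIO group and 0.105 to 0.438 in the DIO+DHA group. The ranges overlapped, since DIO replicate 4 lay below DIO+DHA replicate 4. Markers of other T cell classes were too low to compare, with 5 counts of Cd4 in the DIO and 8 in the DIO+DHA group, 0 counts of Foxp3, which marks regulatory T cells, in any library, and 0 and 2 counts of Trdc, of the γδ receptor.

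NK receptors hardly reached detection. Of 27 genes of NK receptors and markers, 22 failed the filter, and the 2 called lower were Tyrobp and Fcer1g, adaptor proteins that myeloid cells also express. Tyrobp was at 53.0 to 64.6 CPM in the DIO and 27.1 to 34.1 CPM in the DIO+DHA libraries (log2 fold change -1.02, adjusted p = 4.2e-11 in edgeR's quasi-likelihood test), and Fcer1g at 59.1 to 60.8 CPM and 29.2 to 45.8 CPM (log2 fold change -0.73, adjusted p = 4.4e-07). The activating receptors Klrk1 (1.74 ± 1.03 and 1.04 ± 0.730 CPM, adjusted p = 0.148) and Cd160 (1.40 ± 0.304 and 0.724 ± 0.536 CPM, adjusted p = 0.326) were not called.

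The defining NK marker Ncr1 had 2 counts in the DIO group and 0 in the DIO+DHA group, and Klrb1c had 9 and 6. The transcription factor genes of cytotoxic lineages, Tbx21 with 11 and 9 counts and Eomes with 6 and 4, were not tested either. At this depth the NK cells of these livers could not be told from T cells by their own receptors.

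Beside both lists stood the macrophage genes. Of 23 tested genes of macrophages and Kupffer cells, the macrophages that live in the sinusoids, 18 were called lower and 1 higher (median on the log2 scale -0.86) and a sum of 1165 to 1264 CPM in the DIO and 689 to 713 CPM in the DIO+DHA libraries. Clec4f, the marker of Kupffer cells, was at 114 to 150 CPM in the DIO and 62.7 to 86.3 CPM in the DIO+DHA libraries, and no gene of the list was at 0 in all libraries. Of 10 tested B cell and plasma cell genes, 0 were lower (also at an unadjusted p under 0.05, by DESeq2 and by limma-voom) and 1 was higher (0 by DESeq2 and by limma-voom, median -0.04), and of 17 tested pan-leukocyte genes 8 were lower and 0 higher. The part of the macrophages in the results for genes that they also express was not tested.

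Among 29 further genes of the granules and effector functions, 12 were tested, of which 4 were called lower and 0 higher (median on the log2 scale -0.52.) Of the 12, 3 passed the filter on low counts through the DIO group alone. Prf1, the perforin gene, was not called. It had 4, 9 and 8 counts in the DIO libraries and 12, 5, 1, 6 and 12 counts in the DIO+DHA libraries, at 1.76 ± 0.433 CPM and 1.69 ± 0.895 CPM. The groups overlapped, and the log2 fold change of 0.14, with a standard error of 0.45, had an adjusted p of 0.896 in edgeR's quasi-likelihood test. Ifng, the interferon of these cells, had 2 counts in the DIO group and 0 in the DIO+DHA group.

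The called genes were not specific to killer cells. Ctsc, the protease that activates granzymes and also works in myeloid cells, went from 97.9 ± 3.55 to 69.9 ± 4.31 CPM (adjusted p = 1.2e-05 in edgeR's quasi-likelihood test) and was called lower in every fit that left out 1 library. Lyst, of granule trafficking, went from 10.7 ± 1.34 to 6.03 ± 1.29 CPM (adjusted p = 0.0027, and 0.0605 without DIO replicate 5). Srgn, the proteoglycan core of granules, went from 13.4 ± 2.45 to 9.01 ± 0.612 CPM (adjusted p = 0.0325), and its call was lost without DIO replicate 5 (0.346), DIO replicate 1 (0.0819) or DIO+DHA replicate 5 (0.0639).

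Serpinb6b, a serpin gene, went from 1.93 ± 0.238 to 0.696 ± 0.280 CPM (adjusted p = 0.0281). It passed the filter on low counts through the DIO group alone and was not tested with the filter on the mean over all libraries, where the list had 3 lower calls of 9. Its call was lost without any 1 of DIO replicates 1, 4 and 5 and DIO+DHA replicates 1 and 5, with adjusted p from 0.0524 to 0.148. With single libraries left out, the list kept as few as 1 lower call, without DIO replicate 5, and 2 without DIO replicate 1 or DIO+DHA replicate 5. Lamp1, a lysosomal membrane protein gene (110 ± 15.2 and 95.9 ± 12.7 CPM, adjusted p = 0.261), and Stxbp2, of granule fusion (38.2 ± 6.15 and 35.4 ± 5.28 CPM, adjusted p = 0.475), were not called.

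**Figure D2:**
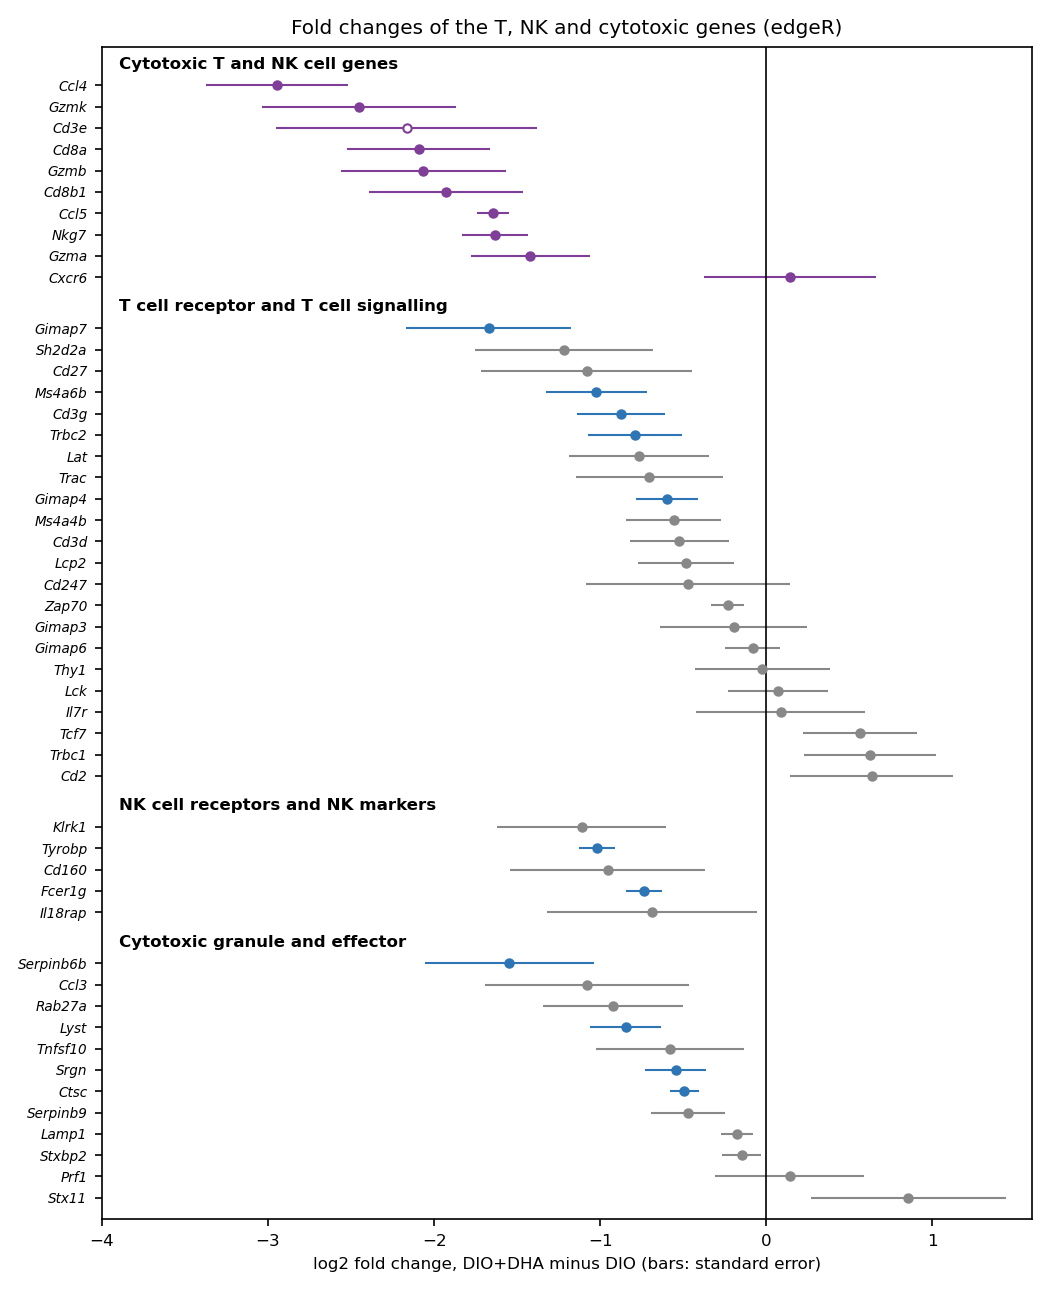
Log2 fold change of DIO+DHA against DIO (horizontal axis, bars give the standard error) of the 10 genes, in purple, and of the tested genes of the T cell, NK cell and granule lists, in blue where called lower and in grey where not called. The hollow point is Cd3e, from the fit without a filter. The 10 genes lie between -2.95 and -1.42 except Cxcr6 at 0.14, whereas Prf1 lies at 0.14 and Trbc1 at 0.63.

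The receptors and ligands around the chemokine genes were followed next. Of 22 such genes 16 were tested, and 6 were called lower and 1 higher (median on the log2 scale -0.53.) Cxcl9, a chemokine induced by interferon-γ that draws T cells through CXCR3, was at 47.8, 48.3 and 40.1 CPM in the DIO libraries and at 11.5 to 17.8 CPM in the DIO+DHA libraries (log2 fold change -1.71, standard error 0.13, adjusted p = 8.2e-16 in edgeR's quasi-likelihood test). It was called lower under every alternative. Cxcl16, the ligand of CXCR6, was at 14.1, 16.8 and 23.2 CPM against 8.71 to 15.2 CPM, which overlap (log2 fold change -0.81, adjusted p = 0.00049). Its call was lost without DIO replicate 5 (adjusted p = 0.0798), and Zmynd15 shares 18.3% of its exon bases. Its receptor gene Cxcr6 was not called, and the difference between the 2 genes was not tested.

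Sdc4, a heparan sulfate proteoglycan that binds chemokines, went from 688 ± 149 to 477 ± 22.6 CPM (adjusted p = 0.00057), while Cxcl12 (227 ± 12.7 and 225 ± 13.9 CPM, adjusted p = 0.936) and Sdc1 (143 ± 13.7 and 141 ± 9.19 CPM, adjusted p = 0.913), all by edgeR's quasi-likelihood test, were not called.

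The neighbours of Ccl4 and Ccl5 on chromosome 11 did not all go the same way. Ccl6 was at 50.1 to 59.1 CPM in the DIO and 26.7 to 35.9 CPM in the DIO+DHA libraries (log2 fold change -0.78, adjusted p = 5.0e-08 in edgeR's quasi-likelihood test), and Ccl9, next to it, was higher in the DIO+DHA group, at 49.4 to 60.3 CPM against 66.0 to 74.6 CPM (log2 fold change 0.40, adjusted p = 0.0016). The call of Ccl9 was lost without DIO replicate 4 (0.0545). Both are chemokines of myeloid cells. Wfdc17, a gene of macrophages, was lower (80.3 ± 5.87 to 39.5 ± 3.54 CPM, log2 fold change -1.04, adjusted p = 4.4e-13), and Ccl3, the partner of Ccl4 on the other strand, had 17 and 12 counts and was not called (log2 fold change -1.08, standard error 0.61). Within 100 kb of any of the 10 genes lay 102 other genes, of which 22 were tested. Of these, 3 were lower (Ccl6, Wfdc17 and Cd3g, which lies beside Cd3e) and 1 was higher (Ccl9).

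**Figure D3:**
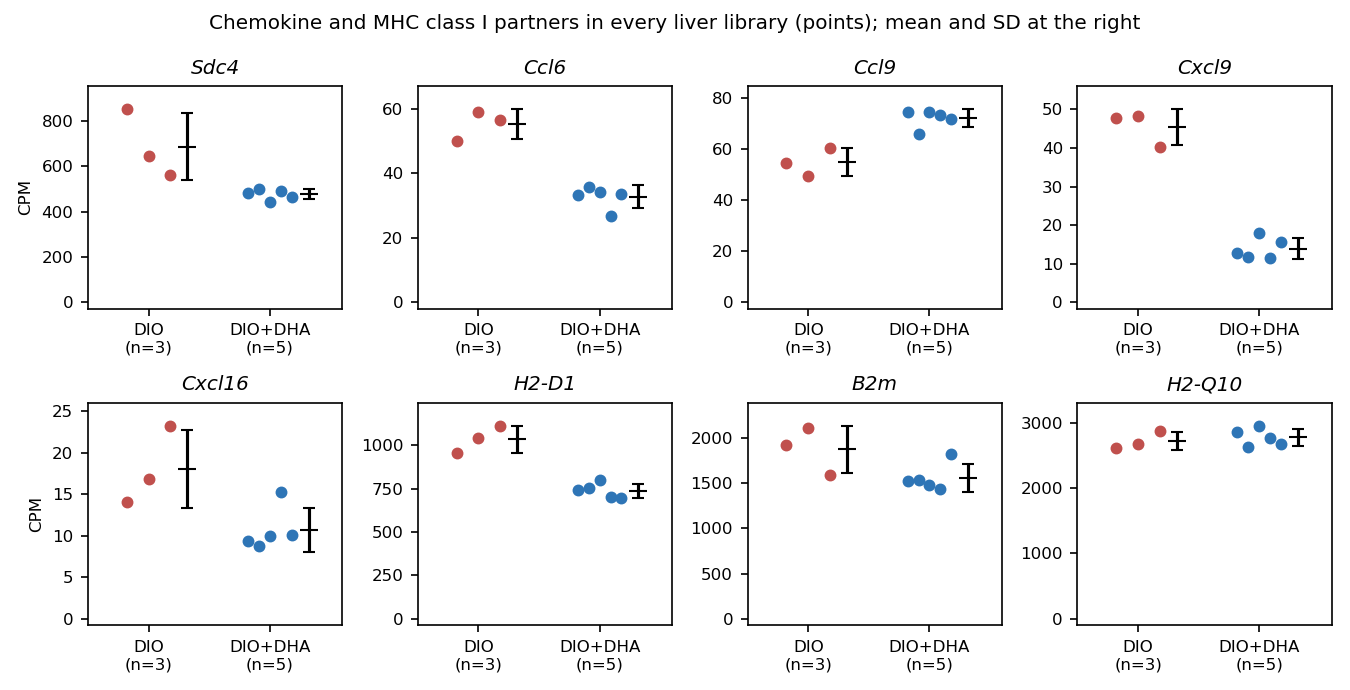
CPM (vertical axis, from 0, a separate scale for each gene) of chemokine partners and MHC class I genes in the DIO libraries (3 points) and the DIO+DHA libraries (5 points), with the group mean and SD beside them. Sdc4, Ccl6, Cxcl9 and H2-D1 show no overlap, Ccl9 is higher in all DIO+DHA libraries, and H2-Q10 overlaps.

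MHC class I, the ligand of CD8 and of many NK receptors, is made by nearly all liver cells. Of 22 tested genes of its chains and of antigen processing, 12 were called lower and 0 higher (median on the log2 scale -0.32.) H2-D1, a classical heavy chain, was at 956 to 1112 CPM in the DIO libraries and at 697 to 800 CPM in the DIO+DHA libraries (log2 fold change -0.49, adjusted p = 1.9e-08 in edgeR's quasi-likelihood test). Psmb10, an immunoproteasome subunit, went from 134 ± 0.892 to 87.0 ± 7.39 CPM (adjusted p = 2.0e-08), and Tapbp, which loads peptides and shares 33.1% of its exon bases with other genes, from 105 ± 12.2 to 80.1 ± 5.92 CPM (adjusted p = 0.0015).

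The other class I changes were smaller. H2-K1 went from 2071 ± 202 to 1759 ± 174 CPM (adjusted p = 0.0169 in edgeR's quasi-likelihood test), B2m, the light chain, from 1872 ± 263 to 1558 ± 152 CPM (adjusted p = 0.0241), and Psme2, a proteasome activator, from 129 ± 11.1 to 105 ± 7.40 CPM (adjusted p = 0.0037). The groups overlapped for H2-K1 and B2m. The call of B2m was lost without DIO replicate 4 (0.233), DIO replicate 1 (0.0895) or DIO+DHA replicate 2 (0.0550). That of H2-K1 was lost without DIO replicate 1 (0.164), DIO replicate 4 (0.0847) or DIO+DHA replicate 5 (0.0577), and that of Psme2 without DIO replicate 5 (0.0644). H2-Q10, the secreted class I chain of hepatocytes, was at 2719 ± 136 and 2775 ± 134 CPM (adjusted p = 0.831), and the chaperone gene Calr at 285 ± 12.5 and 316 ± 24.6 CPM (adjusted p = 0.152). H2-D1, H2-K1 and H2-Q10 are near-identical in places, and reads that fit several of them were not counted.

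The list of cytokine receptors and signals of T and NK cells gave 6 lower and 0 higher calls among 18 tested genes (median on the log2 scale -0.41). The part of other liver cells in these calls was not tested. Of the 18, 3 passed the filter on low counts through the DIO group alone. Il18bp, the secreted trap of interleukin-18, had the most distinct groups, at 40.4 to 48.1 CPM in the DIO and 18.1 to 21.8 CPM in the DIO+DHA libraries (log2 fold change -1.20, adjusted p = 6.1e-12 in edgeR's quasi-likelihood test). Il18 itself went from 16.0 ± 0.732 to 10.8 ± 1.87 CPM (adjusted p = 0.0085), and its call was lost without DIO replicate 4 (0.0547) or DIO replicate 5 (0.0570). Stat3 went from 108 ± 6.35 to 64.9 ± 6.74 CPM (adjusted p = 2.2e-09).

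Il2rg, the common γ chain of the receptors of interleukins 2 and 15, went from 9.07 ± 1.06 to 5.25 ± 0.485 CPM (adjusted p = 0.0051 in edgeR's quasi-likelihood test, and 0.0939 without DIO replicate 5). Jak3, its kinase, went from 8.36 ± 4.05 to 4.20 ± 1.35 CPM (adjusted p = 0.0474) with overlapping groups, and its call was lost without DIO replicate 1 or 5 or DIO+DHA replicate 1, 2, 4 or 6, with adjusted p from 0.0542 to 0.308. Jak1 (51.1 ± 2.29 and 43.9 ± 3.72 CPM, adjusted p = 0.166) and Il15ra (30.3 ± 4.51 and 25 ± 2.83 CPM, adjusted p = 0.298) were not called. Without DIO replicate 5 this list had 3 lower calls.

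The transcription factors of T and NK cells were the only one of the 8 T and NK lists with more higher than lower calls, 4 against 1 of 16 tested, and its median was 0.16. Id3 (52.5 ± 3.28 to 69.6 ± 7.42 CPM, adjusted p = 0.0013 in edgeR's quasi-likelihood test), Rora (34.9 ± 1.97 to 47.3 ± 4.41 CPM, adjusted p = 0.0038), Zbtb16 (5.02 ± 0.546 to 10.1 ± 1.44 CPM, adjusted p = 0.00087) and Nr4a1 (0.299 ± 0.275 to 1.96 ± 1.11 CPM, adjusted p = 0.0075) were higher in the DIO+DHA group. Hepatocytes express Id3, Rora and Zbtb16 as well. Nr4a1 passed the filter on low counts through the DIO+DHA group alone, and its call was lost without DIO replicate 5 (0.0536).

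The number of lower calls in the list was 2 without DIO replicate 4 and 0 without DIO replicate 5. Id2, needed by NK cells, was at 211 ± 81.2 and 285 ± 28.6 CPM (adjusted p = 0.264) and was called higher without DIO replicate 1 (adjusted p = 1.6e-12). Klf2 was at 25.5 ± 3.82 and 27.0 ± 3.74 CPM (adjusted p = 0.653).

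Genes of tissue residence and of checkpoints gave 8 lower and 0 higher calls among 17 tested (median on the log2 scale -0.58), and 6 lower calls among 13 with the filter on the mean over all libraries. Entpd1, the ectonucleotidase CD39 of resident and exhausted T cells and of endothelium, went from 16.7 ± 1.33 to 6.87 ± 0.646 CPM (log2 fold change -1.32, adjusted p = 3.9e-08 in edgeR's quasi-likelihood test). The integrin chains of LFA-1, Itgal (12.6 ± 1.72 to 8.47 ± 1.77 CPM, adjusted p = 0.0273) and Itgb2 (6.70 ± 2.04 to 3.66 ± 1.14 CPM, adjusted p = 0.0107), were lower. Itgb2 was lost without DIO replicate 5 (0.329), and Itgal without DIO replicate 5 (0.269), DIO replicate 4 (0.0575) or DIO+DHA replicate 2, 4 or 5 (0.0599, 0.0523 and 0.0719).

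Rgs2, a brake on G protein signals, went from 24.2 ± 3.68 to 16.2 ± 3.84 CPM (adjusted p = 0.0024 in edgeR's quasi-likelihood test, and 0.0792 without DIO replicate 4). Cd86, a costimulator on antigen-presenting cells, went from 3.63 ± 0.304 to 1.69 ± 0.463 CPM (adjusted p = 0.0298), and Cd274, which encodes PD-L1, from 3.65 ± 0.740 to 1.61 ± 0.512 CPM (adjusted p = 0.0314). Both calls were lost without DIO replicate 4 (0.150 and 0.0830), DIO replicate 5 (0.0905 and 0.0793) or DIO+DHA replicate 4 (0.0640 and 0.0502), that of Cd86 also without DIO+DHA replicate 2 (0.0555), and that of Cd274 also without DIO replicate 1 (0.0915) or DIO+DHA replicate 1 or 5 (0.0568 and 0.0825). Lgals9 (487 ± 2.30 and 529 ± 15.5 CPM, adjusted p = 0.247) and Itgb1 (73.8 ± 7.47 and 70.7 ± 7.17 CPM, adjusted p = 0.697) were not called. The list had 3 lower calls without DIO replicate 4, 4 without DIO replicate 5 and 5 without DIO+DHA replicate 4.

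**Figure D4:**
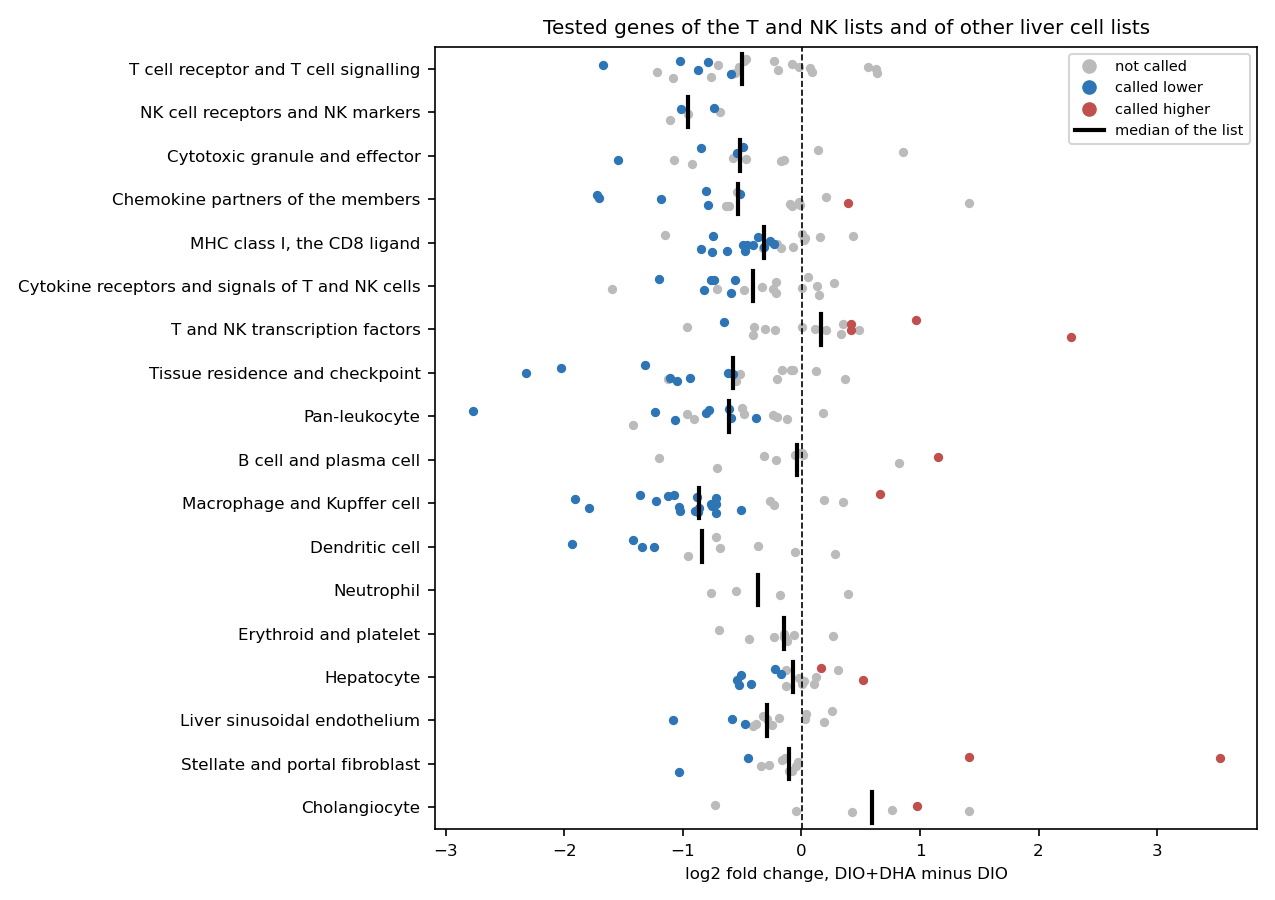
Log2 fold change of DIO+DHA against DIO (horizontal axis) of each tested gene of the 8 T and NK lists and of 10 lists of other liver cells, with called genes in colour, the median of each list as a bar and that of all tested genes as a dashed line. The macrophage list has its median at -0.86 and the B cell list at -0.04, and the transcription factor list lies to the right of the other T and NK lists at 0.16.

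Over the 8 T and NK lists, 44 of 128 tested genes were called lower and 5 higher (median on the log2 scale -0.47), beside 7.28% lower and 7.89% higher among all tested genes. The number of lower calls fell to 28 without DIO replicate 4 and to 28 without DIO replicate 5. With the filter on the mean over all libraries, which ignores the groups, the number was 40. Genes that passed through the DIO group alone can pull a median down. They were 3 of 5 tested genes in the NK list, 4 of 17 in the residence list, 2 of 16 in the chemokine list and 1 of 22 in the class I list. The lists were written with results of these libraries known, so the counts are a description. In the 6 T and NK lists without a higher call (96 tested genes), 2 genes were higher at an unadjusted p under 0.05, 0 by DESeq2 and 1 by limma-voom.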

How the data were processed

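Poly(A) RNA from 8 livers was sequenced by an adapted SCRB-seq protocol, which barcodes samples and molecules in the oligo(dT) primer and favours 3′ ends. Reads were trimmed and mapped by the authors with STAR 2.7.9a (GRCm39), and they deposited whole-number counts per gene, made with featureCounts 1.6.0 on the exons of GENCODE mouse release 33, without normalization. The file headers name no strand, multi-mapping or overlap option, and whether molecular identifiers were collapsed is not given in the sources used here, so intervals and floors cover counting error only.

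Names came from GENCODE release 39 (56323 of 56884 identifiers matched) and coordinates from the deposited tables. A gene was left out where over 50% of DIO and over 50% of DIO+DHA libraries had under 5 counts, and 12412 remained. TMM factors, the robust quasi-likelihood test of edgeR 4.0.16 (R 4.3.3) and a Benjamini-Hochberg threshold of 0.05 were used. Fold changes used a prior count of 0.125, and ± is the SD. Standard errors were worked back from that test, as the absolute log2 fold change over the square root of its F statistic. P-values rest on the spread between libraries, 1 per mouse, which holds differences between mice and technical spread together. No pair of libraries agreed within counting error (chi-square per degree of freedom of at least 1.83). Uncollapsed molecular identifiers would raise this value too, so it does not by itself show a difference between mice. The functions were tested on simulated counts. Alternatives were limma-voom (limma 3.58.1), DESeq2 1.42.0, other scalings, filters and thresholds, the replicate number as a block and leaving out each library. The authors' own call rule, limma-voom with B above 0, was one of them. A filter on a mean of at least 5 counts was added after the data were seen.

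The 10 genes, the gene lists, the motifs and the tests were chosen with earlier results of these data known. Named in each T and NK list were the called genes, at most the 6 of largest mean CPM, and the 2 uncalled genes of largest mean CPM, besides the defining markers, the called neighbours, and at most the 2 genes of largest mean CPM of each other list. Clec4f, Cd2, Cd3d, Trac, Trbc1, Ccl3 and Fyco1 were named after their values had been seen. The lists Pan-leukocyte and Erythroid each held 1 symbol without a match. Quantitative PCR, serum and histology were not analysed here. Single genes of 3 lists that the rule would name are not reported here.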

Additional observations from a re-analysis of the deposited data

Results flagged for a closer look

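In 118 sets of values over the 5 DIO+DHA libraries (gene levels, sums of lists and the share of Ccl5), 5 held a library whose gap to the nearest other exceeded Dixon's critical value of 0.71 of the range, where chance flags about 1 set in 20. Nkg7 was at 7.85 CPM in DIO+DHA replicate 4, with 4.45 to 5.36 CPM in the other libraries of the group. Tyrobp was at 34.1 CPM in DIO+DHA replicate 6 (27.1 to 28.5 CPM in the others), and B2m at 1820 CPM in the same library (1431 to 1536 CPM). Cxcl16 was at 15.2 CPM in DIO+DHA replicate 5 (8.71 to 10.05 CPM), and Ecm1, a gene of stellate cells, at 180 CPM in that library (158 to 161 CPM).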

How the results depend on the processing

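The 8 genes lower in the DIO+DHA group kept a negative log2 fold change under every alternative that fitted them, from -3.22 to -2.66 for Ccl4, -1.71 to -1.56 for Ccl5 and -1.78 to -1.56 for Nkg7 at the standard prior count. A prior count of 2 gave -2.30 for Ccl4, -1.51 for Gzmb, -1.61 for Gzmk and -1.64 for Cd8a. Genes called (1883) fell to 860 with limma-voom at B above 0 and to 1225 at an adjusted p under 0.01, were 1317 by DESeq2, and ran from 1432 to 1859 without single libraries. Lower calls in the T and NK lists (44) fell to 28 by DESeq2, 18 at B above 0 and 27 at an adjusted p under 0.01, and ran from 28 to 42 without single libraries. Those of the T cell receptor list (5) fell to 0 under these 3 settings. Deviations from the group mean had r of -0.013, -0.013 and -0.011 between libraries with the same replicate number (1, 4 and 5). These r values span all tested genes, low ones included, and few libraries, so they cannot decide whether the numbers pair the samples. With the replicate numbers as a block 1538 genes were called, 31 of the lists were lower, and Gzmk and Gzma moved to -3.04 and -1.77. Of 51 called genes named beside the 10, 21 kept the call under every alternative but the stricter threshold, which was not applied to single genes, 24 kept it in every fit without 1 library, and 0 of the 89 named genes reversed a call. Low counts limit Cd3e, Cxcr6, Ccl4, Cd8a, Cd8b1 and the granzymes, and the cause of lost calls was not tested.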

Other observations

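Other cells of the liver gave the following values beside the T and NK genes. Dendritic cell genes had 4 lower and 0 higher calls among 10 tested, with H2-Ab1, an MHC class II chain, at 223 ± 3.47 CPM in the DIO group (SD, n = 3) and 93.9 ± 6.23 CPM in the DIO+DHA group (SD, n = 5; adjusted p = 3.8e-20 in edgeR's quasi-likelihood test), and Bst2 at 91.4 ± 7.12 and 88.9 ± 3.07 CPM (adjusted p = 0.762). Of the pan-leukocyte genes, Cd74, the class II chaperone, went from 82.2 ± 5.18 to 35.1 ± 3.55 CPM (adjusted p = 1.1e-15) and Laptm5 from 49.5 ± 6.42 to 33.5 ± 2.22 CPM (adjusted p = 2.2e-05). Of the macrophage genes, C1qb went from 171 ± 11.1 to 83.9 ± 2.88 CPM (adjusted p = 3.6e-16) and Lyz2 from 154 ± 9.60 to 92.8 ± 4.85 CPM (adjusted p = 1.1e-10).

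Antibody genes did not pass the test. Igkc was at 129 ± 12.6 and 125 ± 11.4 CPM (adjusted p = 0.744 in edgeR's quasi-likelihood test) and Ighm at 67.1 ± 1.08 and 66.5 ± 3.59 CPM (adjusted p = 0.938). Neutrophil genes had 0 calls among 4 tested by edgeR, DESeq2 and limma-voom (1 lower at an unadjusted p under 0.05), with S100a8 at 7.69 ± 0.531 and 6.89 ± 0.993 CPM (adjusted p = 0.683) and S100a9 at 5.06 ± 1.48 and 7.01 ± 1.80 CPM (adjusted p = 0.336). Erythroid and platelet genes had 0 calls among 9 tested by the same 3 tools (1 lower at an unadjusted p under 0.05). Sinusoidal endothelium had 3 lower calls of 13, with Clec4g, a lectin, at 72.8 ± 9.47 and 48.3 ± 4.72 CPM (adjusted p = 7.5e-06). Hepatocyte genes had 6 lower and 2 higher calls of 16, with Alb at 39970 ± 2136 and 43522 ± 4081 CPM (adjusted p = 0.187). Stellate cell genes had 2 lower and 2 higher calls of 13, and cholangiocyte genes 0 lower and 1 higher of 6 (0 lower also at an unadjusted p under 0.05, and 0 in either direction by DESeq2 and limma-voom).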
